A study of Mus musculus with 16 samples.

Results

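Cholesterol synthesis was followed through 8 genes in the cortex of mice that carry mutant tau and lose 1 or both alleles of Trem2. Of the 24060 genes listed for each library, the rows for Hmgcs1, Sqle, Fdft1, Fdps, Idi1, Lss, Cyp51 and Insig1 were taken by symbol, and all 8 were found. 7 of them passed a filter on low values (a mean RPKM of at least 1 over all libraries), as did 12015 genes in all. RPKM counts reads relative to the length of the gene in kilobases and to each 1000000 reads of the library. Idi1, with 0 to 10 reads per library, did not pass and was not tested.

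The knockouts (P301S+ TREM2-/-) had no intact Trem2 allele and a P301S transgene, which encodes mutant tau, a protein that binds microtubules. The heterozygotes (P301S+ TREM2+/-) carried the transgene and 1 allele, and P301S+ TREM2+/+ mice carried the transgene and both alleles. Control mice (TREM2+/+) had both alleles and no tau transgene. Each genotype had 4 mice, 2 females and 2 males, aged 8 to 9 months, of a strain labelled C57BL/6; C3. Cortical RNA was read as 3' mRNA libraries, which sample the end of each transcript next to the poly(A) tail. No source used here gives the promoter that drives the transgene or the part of Trem2 that was deleted. Libraries held 2552467 to 14473181 reads. In bulk cortex, fewer cells of a type and less RNA per cell cannot be told apart.

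Cells make cholesterol from acetyl-CoA through mevalonate, farnesyl diphosphate, squalene and lanosterol. Srebf2, a transcription factor held at the endoplasmic reticulum by Insig proteins when sterols are plentiful, drives most genes of the route when sterols are scarce. The adult brain makes its own cholesterol, because lipoproteins of the blood do not cross the blood-brain barrier, and Trem2 is a lipid-sensing receptor of microglia that signals through the adapter Tyrobp. Hmgcs1 forms HMG-CoA, the precursor of mevalonate. Idi1 and Fdps make the isoprenoid units that Fdft1 joins into squalene. Sqle oxidises squalene, Lss closes the ring to lanosterol, and Cyp51 removes a methyl group from lanosterol. Insig1 is the sterol-dependent brake on the pathway and is itself a target of Srebf2.

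In GRCm38 coordinates, Hmgcs1 lies on chromosome 13 (119690379 to 119708260, plus strand), Sqle on chromosome 15 (59315077 to 59331192, plus) and Fdft1 on chromosome 14 (63145150 to 63179578, minus). Fdps lies on chromosome 3 (89093588 to 89101959, minus), Idi1 on chromosome 13 (8885501 to 8892451, plus) and Lss on chromosome 10 (76531588 to 76557138, plus). Cyp51 (4081145 to 4104746, minus) and Insig1 (28071363 to 28078662, plus) are both on chromosome 5. All 8 are protein-coding genes. At their 3' ends, where these reads fall, Fdft1 overlaps Ctsb on the opposite strand by 774 bases and Cyp51 overlaps Akap9 by 166 bases. Lss overlaps the antisense gene 4930483K19Rik by 11268 bases. No source used here says whether counting respected strand, so whether the reads of each pair were kept apart is not known. Fdps overlaps the protein-coding gene Gm43738 on the same strand by 7512 bases, its 3' end included. Gm43738 is not among the genes listed for the libraries, and strand cannot tell the reads of this pair apart.

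RefSeq promoter windows on GRCm38.p6, from 250 bases before to 50 bases after the start of the gene, were found for 5 of the 8 genes, namely Hmgcs1, Idi1, Lss, Cyp51 and Insig1. Sqle, Fdft1 and Fdps had no entry. The windows of the early enzyme, of a late enzyme and of the brake are shown because Srebf2 is known to drive all 3 genes. Capitals mark the letters TCACNCCAC, a form of the core of the sterol regulatory element, the site that Srebf2 binds. The windows are chr13:119690101-119690400 on the plus strand for Hmgcs1, chr5:4104648-4104947 on the minus strand for Cyp51 and chr5:28071162-28071461 on the plus strand for Insig1.
Hmgcs1: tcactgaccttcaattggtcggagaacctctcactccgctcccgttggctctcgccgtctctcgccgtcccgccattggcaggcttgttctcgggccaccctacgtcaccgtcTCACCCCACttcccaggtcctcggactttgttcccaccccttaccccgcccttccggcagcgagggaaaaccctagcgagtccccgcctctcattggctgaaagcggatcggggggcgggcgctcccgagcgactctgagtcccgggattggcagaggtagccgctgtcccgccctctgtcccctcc
Cyp51: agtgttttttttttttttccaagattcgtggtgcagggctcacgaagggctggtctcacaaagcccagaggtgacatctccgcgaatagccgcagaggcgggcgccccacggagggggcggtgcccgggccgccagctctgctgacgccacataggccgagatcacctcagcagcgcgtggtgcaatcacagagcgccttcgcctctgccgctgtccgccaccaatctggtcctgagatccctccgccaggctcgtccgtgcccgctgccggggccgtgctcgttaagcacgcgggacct
Insig1: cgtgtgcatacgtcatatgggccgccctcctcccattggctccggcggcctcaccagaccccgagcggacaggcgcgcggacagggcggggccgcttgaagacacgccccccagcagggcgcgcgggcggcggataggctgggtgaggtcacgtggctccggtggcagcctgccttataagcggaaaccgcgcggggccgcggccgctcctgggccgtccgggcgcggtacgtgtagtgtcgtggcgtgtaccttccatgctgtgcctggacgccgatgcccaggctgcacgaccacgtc

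Both strands of the 5 windows were searched for TCACNCCAC, for the related CACCCCAC, which the longer motif can contain, and for CCAAT and GGGCGG, the letters bound by NF-Y and Sp1. TCACNCCAC was found in the Hmgcs1 window alone, as TCACCCCAC with its first base at -137 from the start, and the match to CACCCCAC lies inside it. Of 32851 promoter windows of the same length, 1.24% hold TCACNCCAC and 2.87% hold CACCCCAC. CCAAT was in all 5 windows, with 4 matches in Hmgcs1, 2 in Idi1 and 1 each in Lss, Cyp51 and Insig1, against 37.4% of all windows. GGGCGG was also in all 5, with 3 matches in Hmgcs1, 1 in Idi1, 2 in Lss, 1 in Cyp51 and 3 in Insig1, against 35.7% of all windows. These matches describe letters and not measured binding. Other forms of the sterol regulatory element were not searched for, so a window without these letters may still hold such a site.

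Trem2 was examined first as a check of the labels. It had 1.44, 1.71, 1.46 and 3.75 RPKM in the knockouts, 4.50, 8.37, 25.2 and 13.6 RPKM in the heterozygotes, 34.0, 30.1, 29.6 and 14.3 RPKM in P301S+ TREM2+/+ mice and 10.01, 12.1, 20.2 and 7.35 RPKM in control mice. The knockouts lay below every other library, and heterozygote replicate 3 reached into the range of P301S+ TREM2+/+ mice. Set against its adapter Tyrobp within each library, Trem2 stood at a ratio of 0.0329 to 0.0772 in knockouts, 0.128 to 0.214 in heterozygotes, 0.288 to 0.360 in P301S+ TREM2+/+ mice and 0.266 to 1.39 in controls, so the 3 tau genotypes did not overlap. 1 library stood apart over all genes. Control replicate 3 scored -130.8 on a first principal component that held 52.4% of the variance, and its 50 most abundant genes took 18.6% of its reads. P301S+ TREM2+/+ replicates 1 and 2, the females of that genotype, scored -18.8 and -14.7 on that component. All remaining libraries scored 3.10 or higher. The main comparisons with controls are given with and without control replicate 3.

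The 7 tested genes had their lowest mean in the heterozygotes among the tau genotypes, below both the knockouts and P301S+ TREM2+/+ mice on the log2(RPKM + 1) scale. None of the 7 passed the test adjusted over all genes, in this or any other comparison made. The lowest p was that of Sqle, at 0.741-fold of the midpoint between the homozygotes. 1 heterozygote, replicate 3, held the lowest level of 5 of the 7 genes among the 12 tau libraries, and most of the differences were smaller without it.

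**Figure D1:**
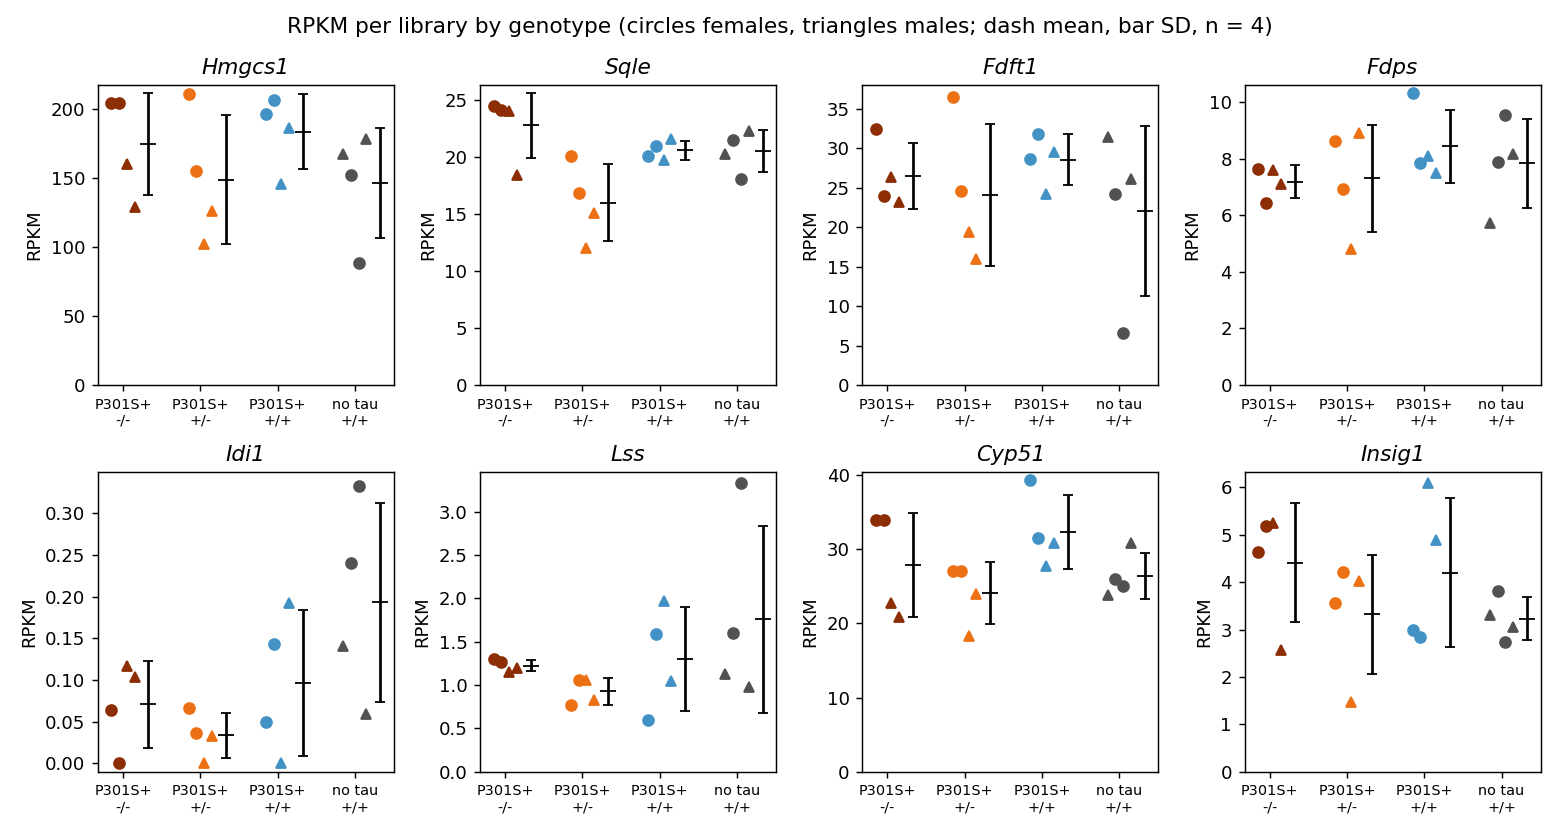
RPKM of each of the 8 genes (vertical axes, each from 0 or just below it) in the 16 libraries, by genotype from knockouts at the left to controls at the right. Circles are females and triangles males, the dash and bar are the mean and SD of 4 mice, and Sqle shows heterozygotes between 11.97 and 20.03 RPKM beside P301S+ TREM2+/+ mice between 19.7 and 21.5.

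Hmgcs1, the enzyme at the entry to the pathway, had 204, 205, 160 and 129 RPKM in the knockouts, 211, 155, 102 and 126 in the heterozygotes, 196, 206, 145 and 186 in P301S+ TREM2+/+ mice and 167, 152, 88.4 and 178 in controls. The heterozygotes spanned the highest and the lowest of the tau libraries, so the groups overlapped throughout. Means were 174 ± 36.8 RPKM in knockouts, 149 ± 46.7 in heterozygotes, 184 ± 26.9 in P301S+ TREM2+/+ mice and 146 ± 40.05 in control mice (SD, n = 4 each), or 166 ± 12.97 in controls without replicate 3.

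Sqle, squalene epoxidase and a rate-limiting step of the later pathway, had 24.4, 24.1, 23.99 and 18.4 RPKM in the knockouts and 20.03, 16.8, 11.97 and 15.04 in the heterozygotes. It had 20.05, 20.9, 19.7 and 21.5 RPKM in P301S+ TREM2+/+ mice and 20.2, 21.4, 18.0 and 22.2 in controls. 3 of the 4 heterozygotes lay below all 8 homozygous tau libraries, and heterozygote replicate 1 lay among them. The P301S+ TREM2+/+ mice were the tightest group, at 20.6 ± 0.830 RPKM, beside 22.7 ± 2.87 in knockouts, 15.97 ± 3.37 in heterozygotes and 20.5 ± 1.84 in control mice (SD, n = 4 each). The largest member difference between any of the tau genotypes was here, with knockouts 0.50 ± 0.15 higher than heterozygotes on the log2 scale (SE, unadjusted p = 0.0046, limma adjusted p = 0.9999). Without heterozygote replicate 3 that difference was 0.39 (unadjusted p = 0.022).

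Cyp51, lanosterol demethylase, had 33.9, 33.8, 22.7 and 20.8 RPKM in the knockouts, 27.1, 27.0, 18.3 and 24.0 in the heterozygotes, 39.4, 31.5, 27.7 and 30.8 in P301S+ TREM2+/+ mice and 23.8, 26.0, 25.0 and 30.7 in controls. Every heterozygote lay below every P301S+ TREM2+/+ mouse, by a margin of less than 1 RPKM at the nearest pair, and the knockouts overlapped both. Of all genes tested, 1.46% had every heterozygote below every P301S+ TREM2+/+ library. The level averaged 27.8 ± 7.02 RPKM in knockouts, 24.1 ± 4.14 in heterozygotes, 32.3 ± 4.97 in P301S+ TREM2+/+ mice and 26.4 ± 3.06 in control mice (SD, n = 4 each). The heterozygotes were 0.41 ± 0.16 lower than P301S+ TREM2+/+ mice on the log2 scale (SE, unadjusted p = 0.021, limma adjusted p = 0.9996), and 0.33 lower without heterozygote replicate 3 (unadjusted p = 0.075).

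Fdft1, squalene synthase, had 32.5, 23.9, 26.4 and 23.2 RPKM in the knockouts, 36.5, 24.6, 19.3 and 15.9 in the heterozygotes, 28.7, 31.8, 24.1 and 29.6 in P301S+ TREM2+/+ mice and 31.4, 24.2, 6.61 and 26.1 in controls. Both male heterozygotes were below every other tau library and a female heterozygote was the highest of all 16. Control replicate 3, at 6.61 RPKM, was the lowest library by far. Group means ran in the order of 26.5 ± 4.202 RPKM in knockouts, 24.1 ± 9.02 in heterozygotes, 28.5 ± 3.21 in P301S+ TREM2+/+ mice and 22.1 ± 10.7 in control mice (SD, n = 4 each), or 27.2 ± 3.74 in controls without replicate 3.

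Fdps, farnesyl diphosphate synthase, had 7.64, 6.44, 7.62 and 7.10 RPKM in the knockouts, 8.62, 6.92, 4.80 and 8.93 in the heterozygotes, 10.3, 7.85, 8.09 and 7.51 in P301S+ TREM2+/+ mice and 5.73, 7.90, 9.55 and 8.18 in controls. The groups overlapped, and Fdps departed least from the midpoint of the 7. Without logs the heterozygote mean of 7.32 ± 1.90 RPKM was above that of the knockouts, 7.20 ± 0.567 (SD, n = 4 each). It averaged 8.45 ± 1.28 RPKM in P301S+ TREM2+/+ mice and 7.84 ± 1.58 in control mice (SD, n = 4 each).

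Insig1, the brake of the pathway, had 4.63, 5.18, 5.26 and 2.57 RPKM in the knockouts, 3.57, 4.21, 1.47 and 4.03 in the heterozygotes, 2.99, 2.84, 6.10 and 4.89 in P301S+ TREM2+/+ mice and 3.31, 3.81, 2.74 and 3.05 in controls. A single library, heterozygote replicate 3, lay below every other one, and the remaining heterozygotes sat inside the ranges of the homozygotes. The means were 4.41 ± 1.25 RPKM in knockouts, 3.32 ± 1.26 in heterozygotes, 4.203 ± 1.57 in P301S+ TREM2+/+ mice and 3.23 ± 0.452 in control mice (SD, n = 4 each). Without replicate 3 the heterozygotes averaged 3.94 ± 0.331 RPKM (SD, n = 3).

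Lss, lanosterol synthase, was near the filter, with 10 to 72 reads per library. It had 1.30, 1.26, 1.15 and 1.19 RPKM in the knockouts, 0.769, 1.06, 1.06 and 0.823 in the heterozygotes, 0.603, 1.58, 1.97 and 1.04 in P301S+ TREM2+/+ mice and 1.13, 1.60, 3.33 and 0.977 in controls. All heterozygotes lay below all knockouts, as held for 2.96% of all genes tested, but P301S+ TREM2+/+ replicate 1 was the lowest tau library. Idi1, isopentenyl diphosphate isomerase, stayed at or below 0.333 RPKM in every library, and was listed at 0 in knockout replicate 2, heterozygote replicate 3 and P301S+ TREM2+/+ replicate 3. Its level was too low to order the genotypes.

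The heterozygotes were set against the midpoint of knockouts and P301S+ TREM2+/+ mice, taken on the log2(RPKM + 1) scale. Equal steps per allele on that scale would place them there. All 7 tested genes were below it on the log2 scale, with a median difference of -0.30, where the median of all genes tested was 0.02 and 44.0% of them were negative. Sqle stood at -0.43 ± 0.13 (SE, unadjusted p = 0.0045), Cyp51 at -0.30 ± 0.14 (unadjusted p = 0.048), Insig1 at -0.31 ± 0.24 and Hmgcs1 at -0.30 ± 0.22. The smaller values were Fdft1 at -0.24 ± 0.32, Lss at -0.21 ± 0.20 and Fdps at -0.11 ± 0.15. None passed the adjusted threshold of 0.05 (limma adjusted p = 0.9997 for all 7), and neither did any other gene (0% of 12015). At an unadjusted p under 0.05, 2 of the 7 were lower, where 0.766% of all genes tested were lower, or 92 genes. Control replicate 3 enters this comparison through the shared spread alone, and leaving it out kept the median of the 7 at -0.30. Without it 3 of the 7 were lower at an unadjusted p under 0.05, Hmgcs1 being the third (unadjusted p = 0.047 in limma), beside 209 of all genes tested.

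A mean below both homozygotes was found for 7 of the 7 tested genes, and for 20.8% of all genes tested. This was a count and not a test. The members were chosen with earlier results of these data known, which also limits the midpoint comparison. All 7 genes were read in the same heterozygotes, so they are not separate observations. No member had every heterozygote below every library of both homozygotes, a pattern that 0.0666% of all genes tested, or 8 genes, showed. With single mice left out in turn, 6 or 7 of the 7 kept a lower heterozygote mean, and the exception was always Fdps, without heterozygote replicate 2 or 3 or knockout replicate 1 or 3. Without both P301S+ TREM2+/+ females all 7 were lower in heterozygotes, as were 29.0% of all genes tested. In males alone all 7 were lower in heterozygotes, as were 28.2% of all genes tested. In females alone 4 of the 7 were, with Fdft1, Fdps and Insig1 as the exceptions, and 25.8% of all genes tested. The comparisons within a sex rest on 2 mice per genotype.

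**Figure D2:**
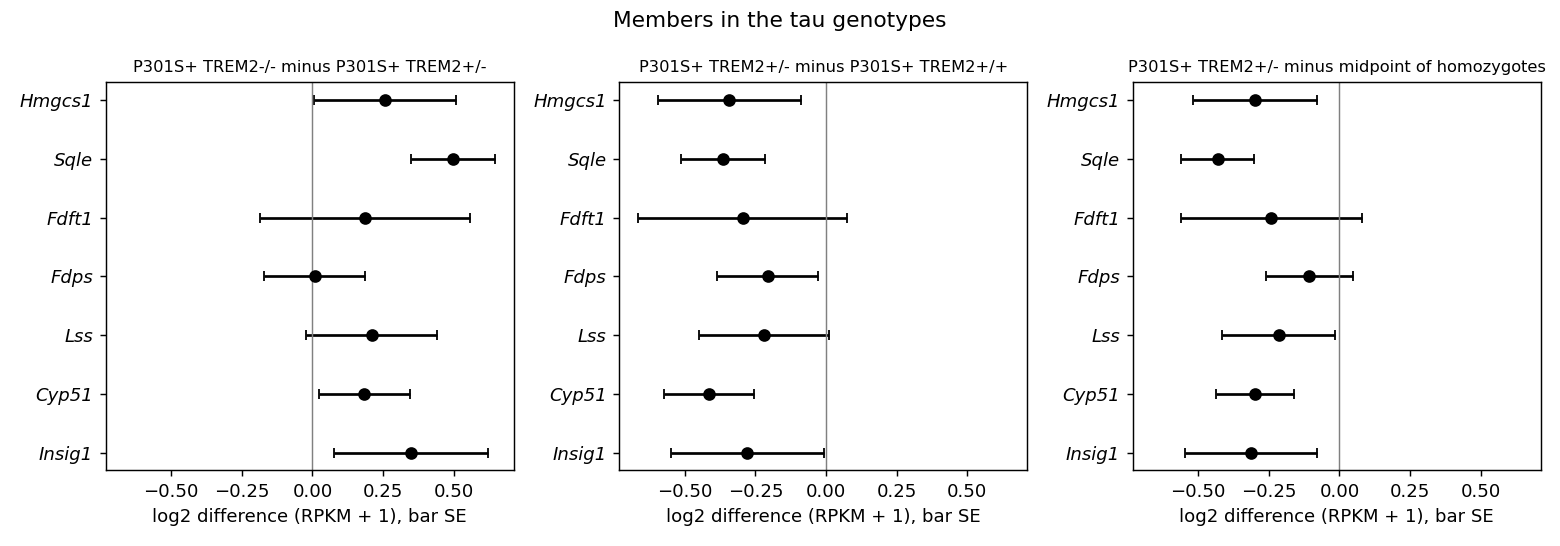
Log2 differences in RPKM + 1 (horizontal axes, bars are SE) of the 7 tested genes, for knockouts minus heterozygotes at the left, heterozygotes minus P301S+ TREM2+/+ in the middle and heterozygotes minus the midpoint of the homozygotes at the right. All 7 points lie above 0 at the left and below 0 in the other panels, and Sqle at 0.50 and -0.43 is farthest from 0 at the left and the right.

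Between heterozygotes and P301S+ TREM2+/+ mice, which differ by 1 allele, all 7 tested genes had a negative difference, with a median of -0.30 against 0.01 for all genes tested. They ran from -0.41 for Cyp51 and -0.37 ± 0.15 for Sqle (unadjusted p = 0.027) to -0.21 for Fdps, with Hmgcs1 at -0.34 ± 0.25. No member and no other gene (0%) passed the adjusted threshold in limma. 2 of the 7 were lower at an unadjusted p under 0.05, against 1.27% of all genes tested. Without heterozygote replicate 3 none of the 7 was lower at that level, and Cyp51 at -0.33 had the lowest unadjusted p of 0.075 in limma. The median was then -0.21, with Sqle at -0.26 (unadjusted p = 0.11 in limma), Hmgcs1 at -0.21, Fdps at -0.06 and Insig1 at -0.01.

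Between knockouts and heterozygotes, which also differ by 1 allele, all 7 had a positive difference, with a median of 0.21 against -0.03 for all genes tested. Values ran from 0.50 for Sqle and 0.35 ± 0.27 for Insig1 to 0.01 ± 0.18 for Fdps (SE). The adjusted threshold was passed by no gene at all in limma (0%), and 1 of the 7, Sqle, was higher at an unadjusted p under 0.05, against 1.94% of all genes tested. Leaving out heterozygote replicate 3 gave a median of 0.10 with 6 of the 7 positive, Hmgcs1 at 0.12, Insig1 at 0.08 and Fdps at -0.14. This comparison and the preceding one share the heterozygotes, so their opposite signs are not separate observations.

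Between knockouts and P301S+ TREM2+/+ mice, which differ by both alleles, the 7 genes were close to level. The median difference was -0.09 against -0.02 for all genes tested, with 5 negative, and Cyp51 at -0.23 ± 0.16 and Sqle at 0.13 ± 0.15 were the extremes (SE). No member passed in limma, whose lowest adjusted p among them was 0.644, and none reached an unadjusted p under 0.05. The share of all genes called was 0.00832%, which is Trem2 itself at -3.17 ± 0.43 (SE, limma adjusted p = 0.040).

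The effect of the tau transgene was read from P301S+ TREM2+/+ mice against controls, and no member was called, nor was any gene (0%). The median of the 7 was 0.26, against 0.06 for all genes tested, with Fdft1 highest at 0.54 ± 0.37 and Lss at -0.23 ± 0.23 (SE). None of the 7 reached an unadjusted p under 0.05. Without control replicate 3, the median was 0.08, and Fdft1 stood at 0.03, Hmgcs1 at 0.08 in place of 0.36, Lss at 0.01 and Sqle at -0.08 in place of 0.01.

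Heterozygotes against controls gave no call in limma (0% of all genes), and the median of the 7 was -0.10 against 0.08 for all genes tested. Sqle was lower by 0.36 ± 0.15 (SE, unadjusted p = 0.030, limma adjusted p = 0.497), the only member of the 7 at an unadjusted p under 0.05, where 3.2% of all genes were lower at that level. Without control replicate 3 Sqle stood at -0.44 (unadjusted p = 0.0052, limma adjusted p = 0.370), Hmgcs1 at -0.26 in place of 0.02, and Fdft1 at -0.27 in place of 0.24, and the median was -0.21. Without heterozygote replicate 3, but with control replicate 3 kept, no member was at an unadjusted p under 0.05, and the median was 0.05. Lss was then lowest at -0.51 (unadjusted p = 0.071 in limma), and Sqle stood at -0.25 (unadjusted p = 0.12 in limma). Control replicate 3 had 3.33 RPKM of Lss, against 0.977 to 1.60 in the other controls. Knockouts against controls likewise gave no call (0%), with a median of 0.14 against 0.08 for all genes tested, a range of -0.24 for Lss to 0.43 for Fdft1, and no member at an unadjusted p under 0.05. Without control replicate 3 the median was -0.009 with 4 of the 7 negative, and that range was -0.08 for Fdft1 to 0.26 for Insig1.

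The weight of heterozygote replicate 3 was traced through the midpoint comparison. Without it the median of the 7 was -0.16 in place of -0.30, with 6 negative. Sqle stood at -0.32 ± 0.13 (SE, unadjusted p = 0.031) and Cyp51 at -0.22 ± 0.15 (unadjusted p = 0.18). Hmgcs1 was at -0.16, Fdft1 at -0.15, Insig1 at -0.05 and Fdps at 0.04. Lss alone moved the other way, to -0.27.

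The remainder of the pathway was read from lists of 15 further synthesis enzymes, 18 genes of sterol sensing and uptake and 11 genes of fatty acid synthesis, none of which held a called gene at the midpoint. Among the enzymes 12 of 15 were negative with a median of -0.14, and 7 of 15 had a heterozygote mean below both homozygotes. Without heterozygote replicate 3 the median was -0.07, with 11 of 15 negative. Dhcr7, a late sterol reductase, had 5.41 ± 0.748 RPKM in knockouts, 4.16 ± 1.12 in heterozygotes, 5.09 ± 0.813 in P301S+ TREM2+/+ mice and 4.13 ± 0.702 in control mice (SD, n = 4 each), with overlapping means and spreads. It stood at -0.29 ± 0.14 from the midpoint (SE, unadjusted p = 0.063, limma adjusted p = 0.9997). Ebp, a sterol isomerase, was at -0.19 and Acat2, which starts from acetyl-CoA, at -0.19.

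Of the 18 sterol sensing and uptake genes, 11 were negative at the midpoint with a median of -0.06, and 8 had a heterozygote mean below both homozygotes. The sterol carrier Stard4 was at -0.24, Srebf2 at -0.22 and Insig2 at -0.19. Abca1, the exporter that loads cholesterol onto apolipoproteins and a target of liver X receptors, ran the other way at 0.64 ± 0.22 (SE, unadjusted p = 0.011, limma adjusted p = 0.9997). Its level was 4.40 ± 1.74 RPKM in knockouts, 7.99 ± 3.86 in heterozygotes, 4.91 ± 2.72 in P301S+ TREM2+/+ mice and 3.39 ± 0.841 in control mice (SD, n = 4 each), with overlapping groups. Nr1h2, a liver X receptor, was at 0.24 ± 0.16.

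Genes of fatty acid synthesis, driven mainly by Srebf1, were counted in the same way. At the midpoint 7 of 11 genes were positive with a median of 0.01, and 1 had a heterozygote mean below both homozygotes. Acly, which supplies acetyl-CoA, was at -0.07, the fatty acid synthase Fasn at 0.07, and the elongases Elovl5 and Elovl6 at 0.11 and -0.07. Whether the lists differ from each other was not tested.

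**Figure D3:**
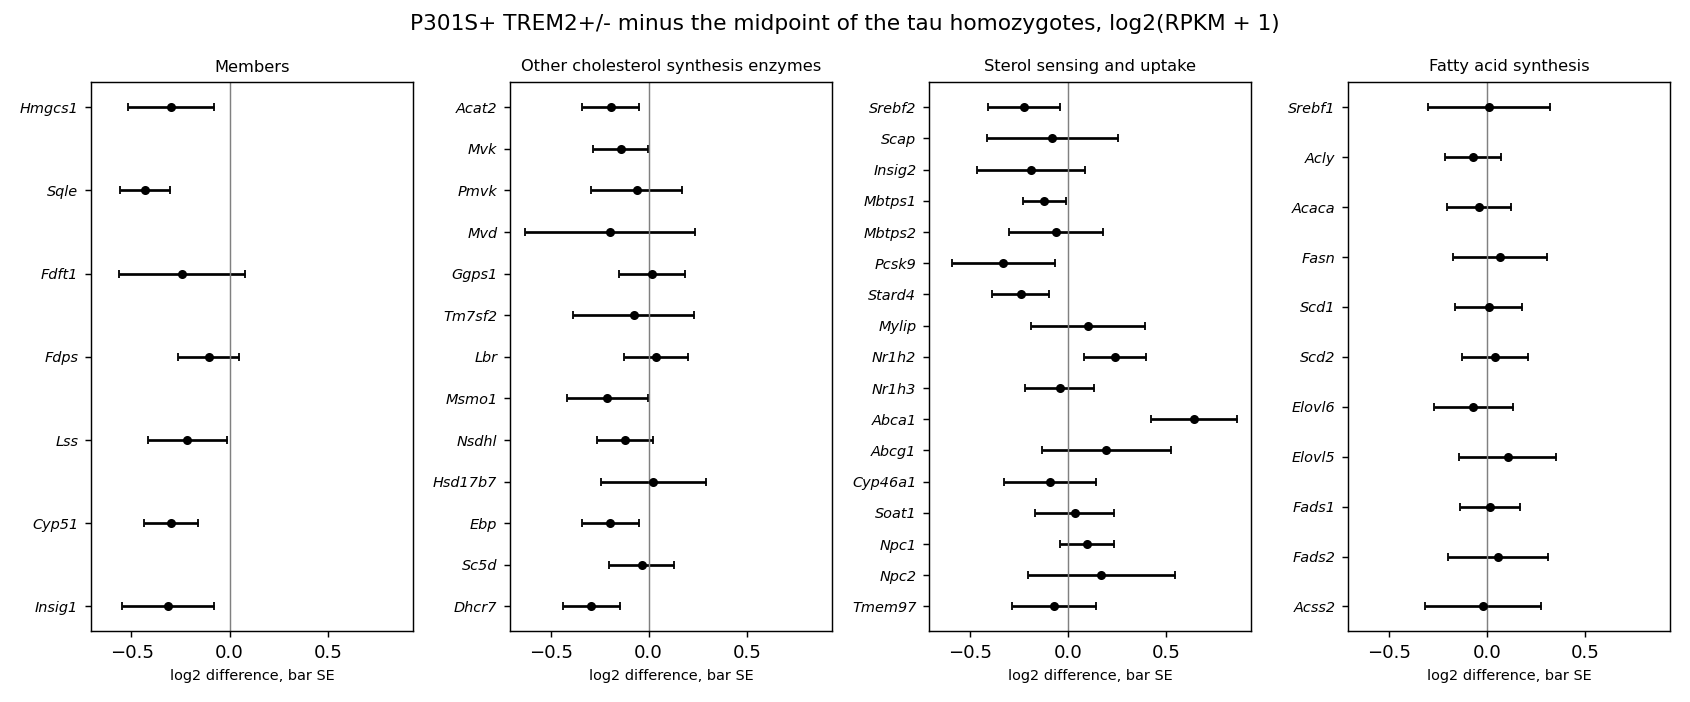
Heterozygotes minus the midpoint of the tau homozygotes, in log2(RPKM + 1) (horizontal axes, bars are SE), for the 7 tested genes and, in the other panels, genes of the lists of other synthesis enzymes, sterol sensing and uptake, and fatty acid synthesis, a few of which are not drawn. All 7 points of the first panel and most of the next lie below 0, Abca1 is the point farthest above it at 0.64, and fatty acid genes lie on both sides.

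How far the 7 genes varied together from mouse to mouse rested on heterozygote replicate 3. Over the 15 libraries without control replicate 3, the median Pearson r of their 21 pairs was 0.39, from -0.25 to 0.83, with 17 positive, against a median of 0.01 for pairs of all genes tested. With the mean of each genotype taken out the median was 0.34, the lowest r was -0.39, and 16 pairs were positive. Over the 14 libraries left without heterozygote replicate 3, the median was 0.06, with 12 of the 21 pairs positive. All points share their library, its depth and its dissection. The mean of the 7 standardised levels was -1.89 in heterozygote replicate 3, the lowest library, -0.77 in heterozygote replicate 4, -0.65 in knockout replicate 4, -0.25 in heterozygote replicate 2 and 0.32 in heterozygote replicate 1. It lay from 0.36 to 0.53 in P301S+ TREM2+/+ mice and reached 0.78 in knockout replicate 1.

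The genes most like this mean profile over those 15 libraries were ranked among 12008 others. Among the 8 with the highest r, Msmo1, the methyl sterol oxidase of the pathway, ranked 2 (r = 0.85) and Stard4 ranked 4 (0.80). They were followed by Racgap1 (0.74), Sgtb (0.73), Mettl22 (0.72) and Camkk2 (0.72). Leaving out heterozygote replicate 3 as well, over 14 libraries, Msmo1 ranked 8 (0.71) and Stard4 ranked 17 (0.67). The other 4 genes named here then ranked from 28 for Sgtb to 487 for Racgap1. With control replicate 3 included, over 16 libraries, Msmo1 ranked 2 (0.75) and Stard4 ranked 4 (0.70).

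**Figure D4:**
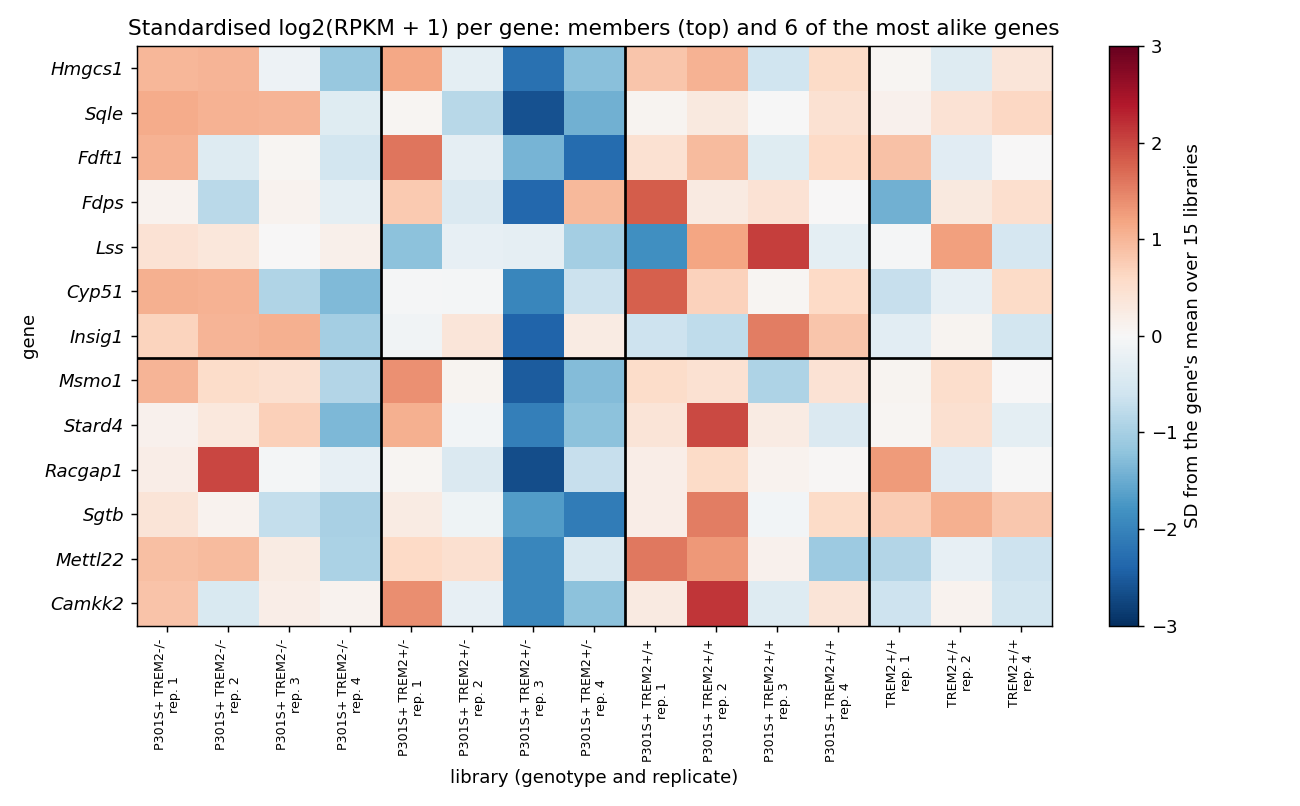
Standardised log2(RPKM + 1) of the 7 tested genes (above the line) and 6 of the 8 genes most like their mean (below it), in SD from each gene's mean over 15 libraries (colour), by library from knockouts at the left to controls at the right. Heterozygote replicate 3, whose mean over the 7 genes is -1.89, is blue in every row, and heterozygote replicate 4 in most.

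Markers of cell types also varied between these libraries. The summed RPKM of 6 microglial markers, none at 0 in every library, was 92.8 to 192 in knockouts, 90.5 to 280 in heterozygotes, 140 to 242 in P301S+ TREM2+/+ mice and 97.4 to 241 in controls, or 97.4 to 113 in controls without replicate 3. Among the heterozygotes it was 90.5 in replicate 1, 139 in replicate 2, 280 in replicate 3 and 226 in replicate 4, while the mean standardised level of the 7 genes was 0.32, -0.25, -1.89 and -0.77 in these mice. Single genes did not all follow that mean, since among the heterozygotes Lss was lowest in replicate 1 and Fdps highest in replicate 4. In the knockouts the microglial sum was highest in replicate 4, at 192, where the mean standardised level was the lowest of the knockouts at -0.65. In P301S+ TREM2+/+ replicates 1 to 4 the microglial sum was 242, 198, 176 and 140. Their mean standardised levels were 0.36, 0.53, 0.45 and 0.39, in the same order. The part of microglial content in the result was not tested.

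6 astrocyte markers summed to 717 ± 109 RPKM in knockouts, 809 ± 118 in heterozygotes, 812 ± 78.9 in P301S+ TREM2+/+ mice and 587 ± 106 in controls, and 948 in heterozygote replicate 3 (SD, n = 4 each). Controls without replicate 3 had 637 ± 48.0 RPKM (SD, n = 3). 8 oligodendrocyte markers summed to 938 ± 150 RPKM in knockouts, 833 ± 76.3 in heterozygotes, 759 ± 122 in P301S+ TREM2+/+ mice and 584 ± 80.3 in control mice (SD, n = 4 each), or 615 ± 63.5 in controls without replicate 3. 6 neuronal markers summed to 5169 to 7420 RPKM in knockouts, 3448 to 7403 in heterozygotes, 4143 to 6351 in P301S+ TREM2+/+ mice and 5666 to 10476 in controls, or 5666 to 9181 in controls without replicate 3. Among the heterozygotes the neuronal sum was 7403 in replicate 1, 5789 in replicate 2, 5584 in replicate 3 and 3448 in replicate 4, the last being the lowest of all 16 libraries. 4 striatal markers, which a cortical dissection can carry, summed to 169 to 708 RPKM in knockouts, 98.1 to 438 in heterozygotes, 419 to 596 in P301S+ TREM2+/+ mice and 103 to 363 in controls, with the lowest value of all in heterozygote replicate 3. 5 choroid plexus markers ranged from 194 to 1137 RPKM in knockouts, 149 to 724 in heterozygotes, 289 to 1988 in P301S+ TREM2+/+ mice and 185 to 622 in controls. Mean striatal sums were 442, 313, 476 and 284 RPKM in that order of genotypes. Mean choroid plexus sums were 463, 399, 1119 and 402 RPKM. At the midpoint all 3 tested striatal genes and all 5 choroid plexus genes were negative, with medians of -0.65 and -0.40 and no call. Medians of the astrocyte, oligodendrocyte, microglial and neuronal lists were 0.18, 0.09, 0.13 and -0.0007. Without heterozygote replicate 3 the striatal and choroid plexus medians were -0.17 and -0.60. The part of these cell types and tissues in the result was not tested.

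Sex was an additive term of the fit, and no member passed the test between males and females over all genotypes. The largest sex difference was that of Cyp51, males 0.29 ± 0.11 below females on the log2 scale (SE, unadjusted p = 0.024, limma adjusted p = 0.324). Of 35 interactions of sex with a comparison, 7 genes in 5 comparisons, 4 had an unadjusted p under 0.05 and none passed the adjusted threshold (lowest limma adjusted p = 0.358). The share of all genes tested at that unadjusted level is not given here, so the count has no background. Those of Hmgcs1 and Lss were between P301S+ TREM2+/+ mice and controls, where the outlying control replicate 3 was 1 of 2 females. The largest of the 4 was Insig1 between heterozygotes and P301S+ TREM2+/+ mice, at -0.87 in males and 0.32 in females (unadjusted p = 0.027 in limma for the difference). Insig1 averaged 2.75 RPKM in male heterozygotes and 5.49 in male P301S+ TREM2+/+ mice, and 3.89 in female heterozygotes and 2.91 in female P301S+ TREM2+/+ mice (n = 2 each).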

How the data were processed

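Cortical RNA of 16 mice was extracted on RNeasy columns, and Lexogen QuantSeq 3' libraries were run on a HiSeq4000 instrument, per the labels' protocols. Genotype was read from each sample's description and sex from its gender label. Replicate numbers are names given here in accession order within a genotype, and pair no samples. The deposited values are RPKM per gene, per the file headers. The submitters' processing notes name STAR, HTSeq, edgeR, limma and the build mm10, with no version or role. Because 3' reads do not scale with gene length, levels were set side by side within a gene and not across genes. Exceptions were the ratio of Trem2 to Tyrobp and the sums of cell type markers, which combine genes. Genes with the highest RPKM weigh most in such a sum, as Nrgn does among the neuronal markers. The 1 line of each file without a gene name was dropped. Within a gene the values were whole multiples of 1 read (tolerance 0.0001 reads or a relative 3e-08), which gave back whole reads for 100% of the 18911 genes with any read. Any 2 libraries differed in at least 16220 genes, so no library was a copy of another. Each was counted as 1 mouse, which this check cannot establish, since 2 libraries of 1 mouse would also differ. The labels do not mention litters, batches or preparation days.

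The test was limma's moderated fit (version 3.58.1 under R 4.3.3, with a mean-variance trend) on log2(RPKM + 1), which understates changes of low genes, over the 12015 genes whose mean RPKM reached 1. The fit had 4 genotype terms and additive sex over 16 libraries (11 residual degrees of freedom; 8 with the sex interaction). Adjusted p-values are Benjamini-Hochberg values over all genes tested, two-sided, threshold 0.05. The script was tested on simulated data. The members and lists were chosen with earlier results of these data known. Named beyond the members were up to 4 genes per list with the lowest p at the midpoint, Srebf2, Insig2 and a few other regulators and enzymes, the 8 most alike genes and Trem2; some genes that this rule names are not reported here. Positions come from GENCODE M21 and promoters from RefSeq. Alternatives were a pseudocount of 0.1, no filter, no sex term, aligned medians, only the genotypes compared, array weights, limma-voom on recovered reads and libraries left out.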

Additional observations from a re-analysis of the deposited data

Results flagged for a closer look

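Sqle in knockout replicate 4 was 18.4 RPKM, far below the other knockouts (23.99 to 24.4 RPKM). Its gap to the nearest of them was 0.927 of the range of the group, above Dixon's critical value for 4 samples. It was the only such library among 28 groups examined (7 genes in 4 genotypes), and chance gives about 1 in 20. The summed microglial markers of this library were the highest of the knockouts, at 192 RPKM, and their part in the value was not tested.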

How the results depend on the processing

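No member was called in any comparison under any setting tried. Of 1224 recomputed log2 differences of the members and named genes, 29 changed sign. The number of all genes called moved more. For knockouts against P301S+ TREM2+/+ mice (1 gene) it was 0 with no filter, 7 with only the genotypes compared, 0 with limma-voom, 690 with array weights, 0 without control replicate 3 and both P301S+ TREM2+/+ females, and 0 to 13 leaving out single libraries. For knockouts against heterozygotes (0) it was 1 with only the genotypes compared, 5 with array weights, 39 without those 3 libraries and 0 to 2 leaving out single ones. For the midpoint (0) array weights gave 1 and single libraries 0 to 1. For P301S+ TREM2+/+ mice against controls (0) these were 197 and 0 to 5. For heterozygotes against controls (0) limma-voom gave 1, array weights 131, the 3 libraries left out 5 and single libraries 0 to 3. For knockouts against controls (0) the same 4 gave 1, 4, 1 and 0 to 1. The highest count with a single library left out was always that without control replicate 3. The cause was not tested.

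For knockouts minus P301S+ TREM2+/+, Lss (-0.01) was 0.034 with a pseudocount of 0.1, 0.12 with limma-voom and -0.21 to 0.16 leaving out single libraries; Insig1 (0.07) was -0.46 without the 3 libraries and -0.075 to 0.27 leaving out single ones, and Hmgcs1 (-0.09) -0.16 to 0.021. For knockouts minus heterozygotes, Fdps (0.01) ran from -0.14 to 0.14. At the midpoint, leaving out single libraries gave -0.24 to 0.042 for Fdps, -0.15 to 0.052 for Acly (0.062 with array weights), -0.027 to 0.20 for Elovl5, -0.14 to 0.026 for Elovl6 and -0.025 to 0.12 for Fasn. For P301S+ TREM2+/+ minus controls, Sqle (0.01) was -0.043 with aligned medians, -0.080 with array weights and -0.078 to 0.074 leaving out single libraries; Lss (-0.23) was 0.0052 with array weights, 0.18 without the 3 libraries and -0.40 to 0.011 leaving out single ones, and Fdps (0.11) ran from -0.0026 to 0.18. Of settings added after seeing the data, females alone gave 4 of 7 genes with heterozygotes below both homozygotes, males alone 7, and mean RPKM without logs 6. No paired analysis was possible because the labels give no replicate numbers, and the numbers used here only name mice. Depth limited Lss (10 to 72 reads) and Idi1 (0 to 10 reads), and these read numbers cover counting error only.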
